A study of Mus musculus with 3 samples.

Results

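The 461 indels described here lie in 3′ untranslated regions (3′ UTRs), the stretches of messenger RNA after the stop codon. Indels are short insertions or deletions of bases. They were taken from the lists of 3 exome libraries of MB49, a mouse bladder cancer cell line. The members were all entries on chromosomes 1 to 19 that the authors' annotation placed in a 3′ UTR and in no other class. Entries were matched across the 3 lists on chromosome, start, reference bases and alternative bases. They make up 461 of the 22791 different autosomal indels and of the 23347 different indels on all chromosomes. The parental list held 286 of them, the Y positive list 272 and the Y negative list 281.

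The 3 groups were the parental MB49 line, an MB49 line labelled as carrying the Y chromosome and an MB49 line labelled as lacking it. The labels name no treatment or dose, and the cells of each line were grown in the same medium. Each group held 1 library, so no difference between lines has a replicate check. The labels do not say whether either derived line was a single clone. Over all chromosomes the lists held 11709 entries for parental, 10334 for Y positive and 12465 for Y negative. The sample descriptions read MBN for the Y positive library and MBP for the Y negative library. The labels do not explain these letters, and read as negative and positive they would go against the genotype. Chromosome Y entries numbered 4 in the library labelled parental, 9 in the one labelled Y positive and 0 in the one labelled Y negative. The 9 and the 0 go with the genotype labels of the derived lines, though such counts are small. Groups follow those labels throughout.

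A 3′ UTR is transcribed but not translated. It carries the signal at which the transcript is cleaved and polyadenylated, sites that base-pair with microRNAs, and AU-rich elements bound by proteins that set how long the message lasts. An indel there leaves the protein sequence as it was, but can add or remove such a site. 3′ UTRs are rich in A and T and hold many homopolymers (runs of 1 base) and short tandem repeats, where DNA polymerases slip and where sequencing and alignment also make length errors. Exome capture is aimed at coding exons, so the part of a 3′ UTR next to the stop codon is read with them.

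The sequences below show the forms the members took. Each is written on the forward genome strand from 5′ to 3′, with the preceding reference base in lower case and the inserted or deleted bases in capitals. Positions are those of the deposited lists, which lie past the last gene of GRCm38 (mm10) on 9 of 19 autosomes. mm9 is the only other build named in the submitters' processing notes. An insertion is given by the base before it. Wherever an indel is named by its position, its bases are likewise those of the forward genome strand. The first 3 are the longest that can be printed here among those read at least 20 times, and each was listed in all 3 libraries. The next is the longest printable deletion listed in all 3 libraries at lower depth. The following 2 are a 1-base run and a 2-base repeat, and the last is an insertion at low depth.
10:114636487-114636499 deletion: aTCAGTACACTGTC
11:48910206-48910214 deletion: cAAATTGGCA
16:48219321 insertion: cTGGACCAT
2:89457357-89457379 deletion: aATTGTCAAAAATTATTATTAAAT
6:51432971 insertion: gTTTTTTTTTTT
13:40801511 insertion: tACACACACACACAC
8:27273410 insertion: aAAAAAAGAAAGTC

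Depth is the number of reads at an entry, and a library's alternative reads over its depth are the allele fraction. The members were read more deeply than the rest of the lists. Their median depth in parental was 19.5 reads, that in Y positive was 22 and that in Y negative 21, against 9, 13 and 7 for the other autosomal entries. The deepest member entry held 245 reads. At least 20 reads were found at 143 entries for parental, 147 for Y positive and 142 for Y negative, with median depths of 56, 52 and 56 reads. Of the 461 members, 212 reached that depth in at least 1 library. Fewer than 5 reads were found at 53 entries for parental, 30 for Y positive and 49 for Y negative. Intervals given below are exact (Clopper-Pearson) 95% intervals and cover counting error only. Neighbouring entries can be 1 event, and reads without molecular identifiers are not independent molecules.

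Most of the members were deletions of 1 or 2 bases. At all depths 340 of 461 were deletions (73.8%, 69.5% to 77.7%), and at depth 20 or more in at least 1 library 161 of 212 were (75.9%, 69.6% to 81.5%). Single-base events made up 251 of 461, and 141 of 212 at that depth. Length 2 followed with 119 and 43 indels. Length 10 or more was found 19 times at all depths and 3 times at depth 20 or more. Long events were thus mostly those with few reads.

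**Figure D1:**
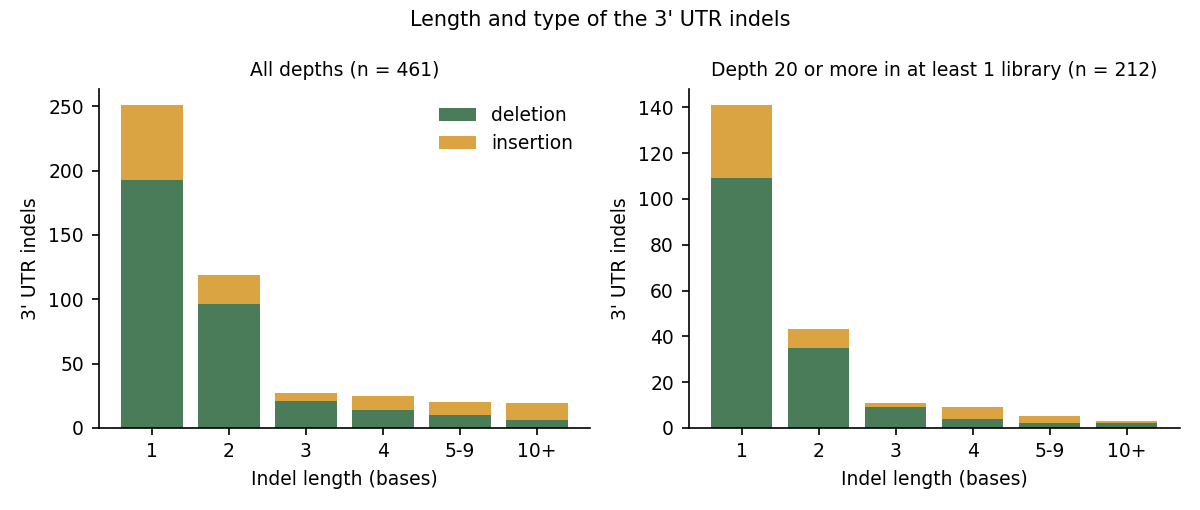
Number of 3′ UTR indels (vertical axis) by length in bases (horizontal axis), with deletions and insertions stacked, at all depths on the left and at depth 20 or more in at least 1 library on the right. Length 1 holds 251 of 461 indels on the left and 141 of 212 on the right, and the bar for length 10 or more shrinks from 19 to 3.

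The base most often lost was T. The annotation gives each event on the strand of its transcript, so the bases can be counted as the messenger RNA carries them (as T for U). Among 193 single-base deletions at all depths, 91 removed a T (47.2%, 39.9% to 54.4%) and 60 an A (31.1%, 24.6% to 38.1%). A C was removed by 26 and a G by 16. The counts at depth 20 or more were 58 T, 35 A, 9 C and 7 G of 109. The excess of T over A was smaller when the bases were read on the forward genome strand, where 81 of 193 were T and 70 were A. Single-base insertions had the same order at all depths, with 29 T, 18 A, 6 C and 5 G of 58. The 13 T and 11 A of 32 at depth 20 or more lay close together. On the forward genome strand these insertions were 16 T and 8 A, a larger gap, unlike the deletions. The base composition of the 3′ UTRs themselves was not measured here.

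Single-base A or T indels of either type made up 117 of the 212 members at depth 20 or more (55.2%, 48.2% to 62.0%). The share was 46.6% (45.3% to 47.9%) among the 5861 other autosomal indels at that depth. Among coding indels it was 28.7% (22.5% to 35.6%), among intronic indels 48.0% (46.2% to 49.7%) and among 5′ UTR indels 52.3% (36.7% to 67.5%). Indels of 5 or more bases were 3.77% of the members (1.64% to 7.30%), 20% of coding indels (14.6% to 26.3%) and 6.64% of intronic indels (5.80% to 7.57%). These shares are set side by side and no test was run between classes.

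Longer events often repeated a short unit. Of the 210 members with 2 or more bases, 77 were runs of 1 base and 55 were made of AC, CA, GT or TG units. Those counts were 27 and 24 of 71 at depth 20 or more. The 14-base insertion of AC units on chromosome 13 shown above was listed in all 3 libraries, with 9 reads at most. The 11-base T insertion on chromosome 6 was listed in 1 library, at a depth of 16.

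Of the 8 longest members at depth 20 or more, 7 were listed in all 3 libraries, and 5 of those 7 were homozygous in each. A 36-base deletion at 9:66803358-66803393, 92 bases after the stop codon of ENSMUST00000034929, had all of its 38 parental, 43 Y positive and 35 Y negative reads with the alternative allele. The 13-base deletion on chromosome 10, 112 bases after the stop codon of ENSMUST00000020339, had 49 of 49, 50 of 50 and 40 of 40 alternative reads. The 9-base deletion on chromosome 11, 36 bases after the stop codon of ENSMUST00000046704, had 118 of 118, 100 of 100 and 95 of 95. No read of any library carried the reference bases at these 3 places. A 7-base insertion at 13:36061801 in ENSMUST00000132661 was also homozygous, with 90 of 90, 92 of 92 and 88 of 88 reads. A 6-base insertion of T at 8:109585435 had 8 of 8, 35 of 35 and 15 of 15 reads, so only the Y positive library passed 20 reads there. A 2-base deletion at 8:109585433 was also listed in all 3 libraries, and these 2 neighbouring entries can be 1 event.

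The other 2 of these 7 were heterozygous in every library. The 8-base insertion on chromosome 16, 6 bases after the stop codon of ENSMUST00000062591, was carried by 24 of 90 parental reads (0.267), 22 of 70 Y positive reads (0.314) and 21 of 105 Y negative reads (0.20). A 5-base ATGAG deletion at 14:113715260-113715264 in ENSMUST00000072359 had 114 of 187, 91 of 173 and 89 of 162 alternative reads. The first lies well below an even split of reads in all 3 libraries and the second a little above it.

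The longest member of all was listed in the Y negative library alone. It was an insertion of 84 bases at 7:3415365, 1 base after the stop codon of ENSMUST00000092351. It was called homozygous from 28 of 28 reads (0.877 to 1). Neither other list held the entry, and the lists give no reference reads for what they leave out. Whether the other lines lack it, or were read too little there, cannot be told from these data.

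Each entry carried the authors' genotype call: homozygous, heterozygous for 1 alternative allele, or 2 different alternative alleles at 1 site. At all depths homozygous entries made up 122 of the 276 parental entries with 1 alternative allele (44.2%), 113 of 266 in Y positive (42.5%) and 122 of 269 in Y negative (45.4%). Depth 20 or more gave 28.1% (38 of 135, 20.8% to 36.5%), 31.2% (44 of 141, 23.7% to 39.5%) and 32.6% (43 of 132, 24.7% to 41.3%). The 3 intervals overlap, and they also hold the 28.9%, 28.9% and 27.7% of the other autosomal indels at the same depth. The libraries share many of these sites, so their shares are not independent. Nearly all shallow entries were called homozygous: under 5 reads, 50 of the 53 entries for parental, 29 of the 30 for Y positive and 42 of the 49 for Y negative were. Entries with 2 alternative alleles numbered 10, 6 and 12 at all depths.

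Most homozygous entries at depth 20 or more had no reference read. That was so at 31 of 38 places for parental, 36 of 44 for Y positive and 38 of 43 for Y negative. Among the other autosomal indels it was so at 858 of 1057, 838 of 1062 and 801 of 995. The lowest allele fraction of a homozygous member call was 0.848, in Y positive. Heterozygous entries at that depth had median allele fractions of 0.405 in parental (n = 97, quartiles 0.276 and 0.537), 0.423 in Y positive (n = 97, 0.314 and 0.517) and 0.444 in Y negative (n = 89, 0.32 and 0.532). The medians of the other autosomal indels were 0.405, 0.414 and 0.387. All of these lie below 0.5. An allele fraction under 0.25 was found at 12 of 97, 14 of 97 and 6 of 89 heterozygous member entries. Among heterozygous entries of the other autosomal indels it was found at 394 of 2595, 348 of 2610 and 435 of 2593.

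**Figure D2:**
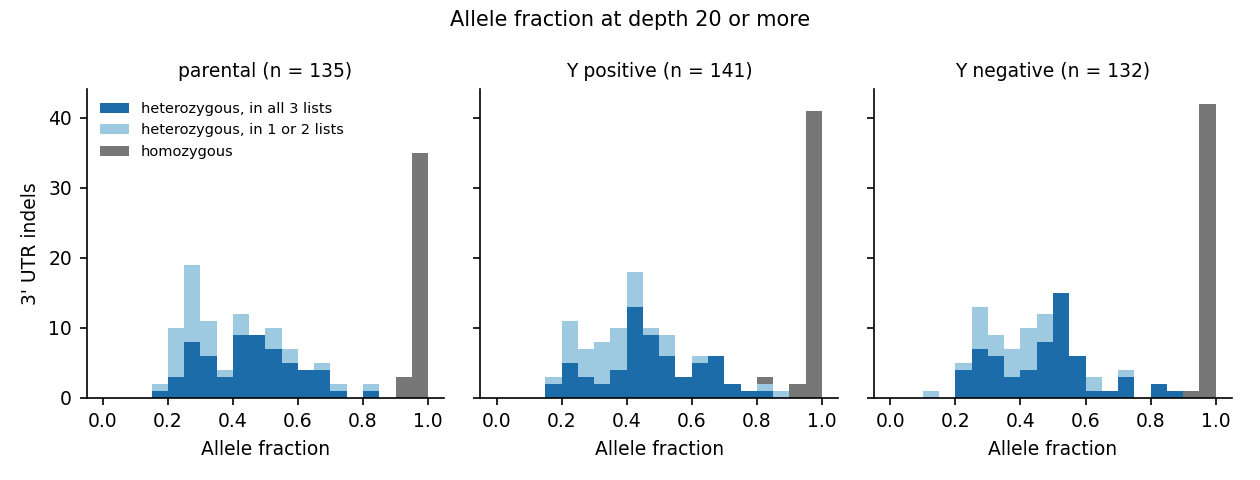
Number of 3′ UTR indels with 1 alternative allele (vertical axis) by allele fraction (horizontal axis), at depth 20 or more, with 1 panel per library and the entries of each bar stacked by genotype and by the number of lists that hold the indel. Homozygous entries stand near 1, and the median of the heterozygous entries is 0.279 for those in 1 list alone and 0.453 for those in all 3 lists in the parental library.

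The deepest homozygous members carried the same call in every library. A 4-base GAGT insertion at 9:121621792, 24 bases after the stop codon of ENSMUST00000035113, had only alternative reads, 130 for parental, 171 for Y positive and 154 for Y negative. A 4-base insertion at 2:83755344 in ENSMUST00000038223 had 156 of 156, 125 of 125 and 139 of 141 reads. Single-base members at 3:89903536 (a C insertion) and 3:84399512 (an A deletion) had no reference read in any library, over depths of 105 to 124 reads.

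The deepest member called heterozygous in all 3 libraries was a T deletion at 13:23831987, 633 bases after the stop codon of ENSMUST00000040914. It was carried by 123 of 224 parental reads (0.549), 135 of 224 Y positive reads (0.603) and 117 of 245 Y negative reads (0.478). T deletions at 12:75401121 and 4:46359027 were next among single-base events, with allele fractions of 0.440 to 0.588 over the 3 libraries. A GCA deletion at 14:76363210-76363212 and a TT insertion at 14:76363212 were listed in the same place in every library. Their alternative reads were 60 and 60 in parental, 55 and 55 in Y positive, and 78 and 78 in Y negative, over depths that differed by at most 2 reads. These 2 entries thus had equal read counts, and they are not separate evidence of an event.

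Sharing differed between all members and the deep ones. At all depths 153 of 461 were in all 3 lists (33.2%, 28.9% to 37.7%), 72 were in 2 lists and 236 in 1. At depth 20 or more in at least 1 library 112 of 212 were in all 3 (52.8%, 45.9% to 59.7%). An indel in 3 lists had 3 chances to reach that depth and a private one had 1, so part of the rise comes with the filter. The size of that part was not tested. Private indels, those in 1 list alone, numbered 87 for parental, 72 for Y positive and 77 for Y negative at all depths, and 28, 21 and 19 at depth 20 or more. Together they were 51.2% of the members at all depths, against 70.8% of the other autosomal indels. At depth 20 or more the shares were 32.1% (25.8% to 38.8%) and 32.5% (31.3% to 33.7%), with no test between them. For comparison, the share in all 3 lists at that depth was 48.5% (47.2% to 49.7%) among the other autosomal indels. It was 64.6% (57.5% to 71.3%) among coding indels and 45.9% (44.2% to 47.7%) among intronic indels, with no test between classes.

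**Figure D3:**
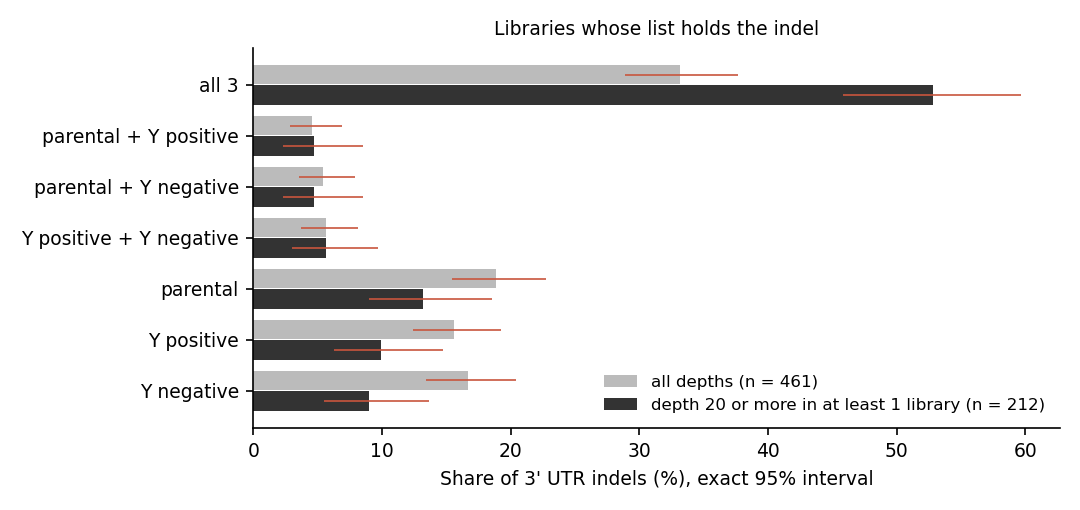
Share of 3′ UTR indels in percent (horizontal axis) by the lists that hold them (vertical axis), at all depths (461 indels, grey) and at depth 20 or more in at least 1 library (212 indels, black), with exact 95% intervals. The share in all 3 lists is 33.2% at all depths and 52.8% at depth 20 or more, and the 3 bars for pairs of libraries lie between 4.56% and 5.66%.

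The 3 pairs of libraries shared their members to a like extent. The Jaccard index, the indels in both lists over those in either, was 0.479 for Y negative with Y positive, 0.453 for Y positive with parental and 0.458 for Y negative with parental. Its values at depth 20 or more were 0.674, 0.632 and 0.639. The Y negative and Y positive lists had the highest index at both depths, and no test of that gap was run. The index was computed for the members alone, so that order may be one of the lists as a whole. Over all depths the 179 members in both derived lists were 63.7% of the Y negative and 65.8% of the Y positive members.

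Whether a member was shared went with its genotype and its allele fraction. The same was not computed for the other autosomal indels, so it is not shown to be particular to the members. Homozygous entries at depth 20 or more were in all 3 lists at 35 of 38 places for parental, 42 of 44 for Y positive and 40 of 43 for Y negative. Heterozygous entries were at 61 of 97 (62.9%, 52.5% to 72.5%), 62 of 97 (63.9%, 53.5% to 73.4%) and 61 of 89 (68.5%, 57.8% to 78.0%). Heterozygous entries in all 3 lists had median allele fractions of 0.453, 0.466 and 0.478. The private ones had 0.279, 0.355 and 0.395, in the same order, and those in 2 lists 0.305, 0.36 and 0.361. Private entries thus had a lower share of alternative reads in each library. The share of entries under 5 reads that were in all 3 lists was 9 of 53, 8 of 30 and 9 of 49.

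The authors' genotype was the same in all 3 libraries at most shared members. Of the 153, 67 were heterozygous in each library and 71 homozygous in each. Of the 95 with at least 20 reads in every library, 58 were heterozygous in each and 34 homozygous in each, which leaves 3. An A insertion at 8:98244126 was heterozygous in parental (27 of 33 reads) and Y negative (17 of 20) and homozygous in Y positive (23 of 24). At the other 2 sites a second length of the same base was listed. A TT insertion at 2:84980018 had 57 of 72 parental reads beside a single T insertion with 13 of 72, and was homozygous in Y positive (58 of 60) and Y negative (56 of 56). The third, a TT deletion at 5:129109520, is described below with its transcript.

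Some private entries had an entry of another library close by. Among private members at depth 20 or more, 11 of the 28 for parental, 5 of the 21 for Y positive and 5 of the 19 for Y negative had an entry of another library within 10 bases. At all depths 16 of 87, 10 of 72 and 13 of 77 did. These counts were not made for private entries among the other autosomal indels. Whether such entries lie in 1 repeat was not examined, since no genome sequence was read. Over all members there were 39 pairs of neighbours within 10 bases. In 30 pairs both were deletions or both insertions of different length, and in 21 of these the lists that held them differed. At 4:3900241 in ENSMUST00000089430 the Y positive library listed a single-base deletion, homozygous with 84 of 99 reads. At the same start the parental and Y negative libraries listed a 2-base deletion, heterozygous with 33 of 66 and 37 of 80 reads. At 10:56109260 in ENSMUST00000068581 the Y positive library listed a 1-base T deletion (33 of 64 reads), the parental library a 2-base one (24 of 70) and the Y negative library neither. At 1:112035976 in ENSMUST00000112701 the Y positive library listed an ACAC deletion (8 of 35), while parental (8 of 26) and Y negative (5 of 15) listed AC.

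In the deposited lists a site with 2 alternative alleles gives its shorter deletion a later start, which splits alleles that are the same. When the bases shared with the reference were trimmed first, a step chosen after seeing the data, the union was 453 indels with 158 in all 3 lists. At depth 20 or more it was 207 indels, with 117 in all 3 and 61 private. At 5:68557575 in ENSMUST00000094715, for example, the parental library listed a T deletion as homozygous (55 of 58 reads). Y positive and Y negative listed it 1 base later, with 29 of 46 and 51 of 68 reads, beside a TT deletion with 15 of 46 and 14 of 68. Before trimming, these counted as different indels.

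The deepest private members, with an allele fraction of at least 0.25, were mostly single bases called heterozygous. In the parental library they were a T deletion at 1:174308457 (37 of 147 reads, 0.252), a T insertion at 12:70474470 (34 of 114, 0.298), the TT deletion on chromosome 10 above and a TG deletion at 3:15731734 (17 of 65, 0.262). In Y positive they were a T insertion at 5:38713114 (32 of 105, 0.305), the chromosome 4 deletion above, a C insertion at 9:67608655 (49 of 93, 0.527) and an A deletion at 2:115692479 (27 of 72, 0.375). In Y negative they were a T deletion at 6:133056359 (27 of 75, 0.36), an A insertion at 5:114217421 (17 of 63, 0.27) and a pair of alleles at 1 site of chromosome 18, with 22 and 26 of 60 reads. The 1-base allele of that pair is private only through its shifted start, since Y positive listed a 1-base deletion at the same site (49 of 60 reads). Private members at depth 20 or more with an allele fraction of at least 0.25 and no entry of another library within 10 bases numbered 13 for parental, 13 for Y positive and 12 for Y negative. The like numbers were not counted among the other autosomal indels. A private entry says that the other lists lack it, not that their reads do.

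The deepest members with 1 alternative allele in each pair of lists had allele fractions under 0.3. A C deletion at 1:173566342 was carried by 26 of 118 parental and 22 of 88 Y negative reads and was not in the Y positive list. A single-base deletion at 19:59397274 was carried by 27 of 99 Y positive and 24 of 85 Y negative reads and was not in the parental list. A 2-base deletion at 1:16699631 was carried by 17 of 79 parental and 15 of 72 Y positive reads and was not in the Y negative list. An A deletion at 12:12943754 was called homozygous in parental (57 of 58) and heterozygous in Y positive (56 of 64). Y negative listed a 1-base A deletion 1 base later (36 of 53) beside an AA deletion (11 of 53), the shifted start of a site with 2 alternative alleles, so the A deletion was not missing there.

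Allele fractions were then compared between pairs of libraries at every indel with 1 alternative allele and at least 20 reads in both. The reads of each site were set in a two-sided Fisher exact test, and p-values were adjusted by Benjamini-Hochberg over all such sites of the pair, members or not. The test compares the reads of 2 libraries, not the conditions. Across all sites 0.794% were called in Y negative against Y positive (21 of 2645), 0.874% in Y positive against parental (24 of 2745) and 0.302% in Y negative against parental (8 of 2651). Of the members, 1 of 103, 1 of 102 and 0 of 100 were called by this exact test, close to those background shares. Unadjusted p-values of the exact test under 0.05 were found at 6, 7 and 9 members (5.83%, 6.86% and 9%), against 6.20%, 6.23% and 5.47% of all sites tested. The allele fractions of the members differed by a median of 0.0411, 0.0391 and 0.0349, and by at most 0.1 at 82, 79 and 79 of them.

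**Figure D4:**
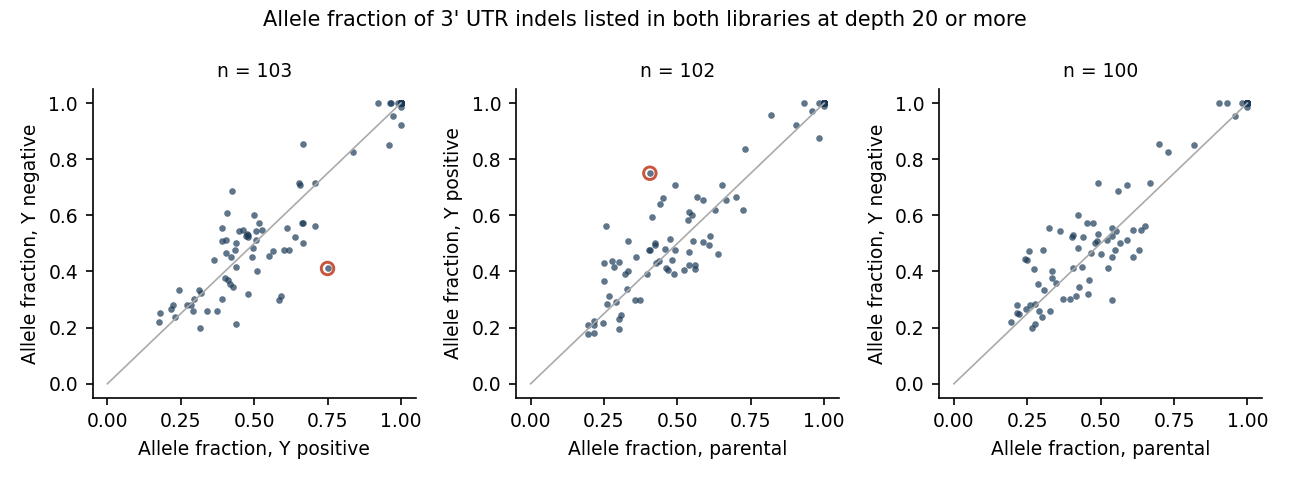
Allele fraction of each 3′ UTR indel in 1 library (vertical axis) against another (horizontal axis), for indels with 1 alternative allele and at least 20 reads in both, with 103, 102 and 100 indels in the 3 panels and a grey line where both are equal. Most points lie near the line (82 of 103 within 0.1 in the left panel), and the ring marks the single indel called in the first 2 panels.

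The 1 called member was the same site in both pairs, which share the Y positive library. It was a G deletion at 3:154428932, 1144 bases after the stop codon of ENSMUST00000098496. It was carried by 26 of 64 parental reads (0.406, 0.285 to 0.536), 48 of 64 Y positive reads (0.75, 0.626 to 0.850) and 23 of 56 Y negative reads (0.411, 0.281 to 0.550). Y positive stood above both other libraries, and the parental and Y negative values were nearly equal. The adjusted p of the Fisher exact test was 0.0306 for Y negative against Y positive and 0.0213 for Y positive against parental. Both calls ended under Bonferroni adjustment (exact test, adjusted p = 0.520 and 0.404). Leaving single-base A or T indels out of the family ended the first (exact test, adjusted p = 0.0624) and kept the second (0.0264). The genotype stayed heterozygous in all 3 libraries.

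The members were dense near the stop codon, and those closest to it were the deepest and the most often shared. The distance was given for all 461, with a median of 209 bases and a range of 1 to 7906. Over the 212 at depth 20 or more the median was 121 bases. Within 50 bases of the stop codon 42 of 57 members reached depth 20 (73.7%), and 33 of the 57 were in all 3 lists. From 51 to 100 bases 53 of 79 reached that depth (67.1%). From 101 to 250 bases 36 of 117 did (30.8%), with median depths of 12.5 parental, 12.5 Y positive and 11 Y negative reads against 56, 54.5 and 58 within the first 50 bases. From 501 to 1000 bases the share rose again to 28 of 56 (50%). Past 2000 bases 14 of 37 reached depth 20 and 5 of 37 were in all 3 lists. The part of the capture design in these values was not tested.

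**Figure D5:**
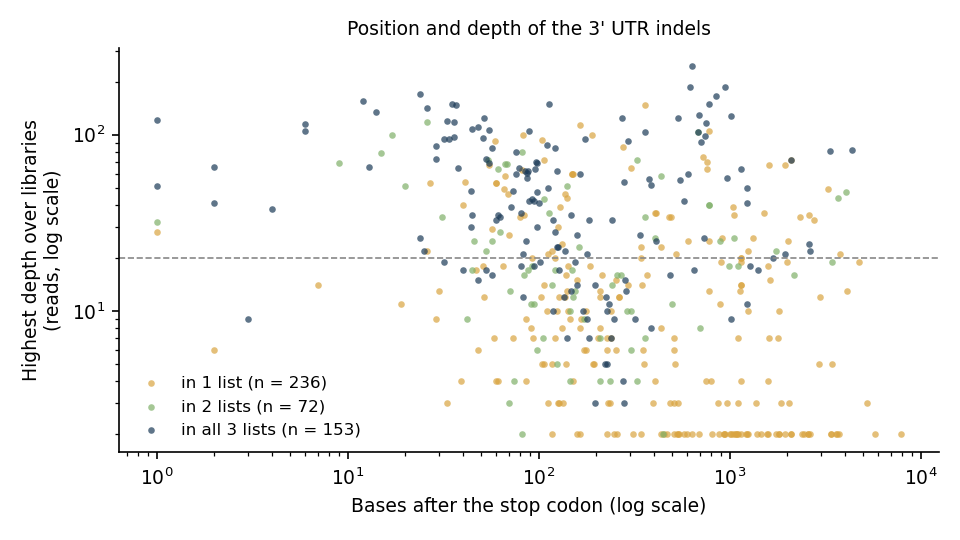
Highest depth of each 3′ UTR indel over the libraries in reads (vertical axis, log scale) against its distance after the stop codon in bases (horizontal axis, log scale), with colours for the number of lists that hold it and a dashed line at 20 reads. Of the 57 indels within 50 bases, 42 lie at or above the line, and the row of points at 2 reads lies almost wholly past 100 bases and belongs mostly to indels in 1 list.

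Some members lay 1 or 2 bases after the stop codon. The base that follows a stop codon is known to affect how well translation ends. Whether the deletions below change that base was not examined, since no genome sequence was read. An A deletion at 2:85664064, 1 base after the stop codon of ENSMUST00000054201, was homozygous with 40 of 40, 51 of 51 and 50 of 50 reads. A single A deletion at 17:23497094, 1 base after the stop codon of ENSMUST00000168175, was heterozygous, with 26 of 121 reads for parental, 24 of 108 for Y positive and 31 of 110 for Y negative. A TAGC insertion at 8:109585494, 2 bases after the stop codon of ENSMUST00000034393, was homozygous with 42 of 42, 66 of 66 and 53 of 53 reads. The first and the third carried no reference read in any library, and the second stayed below an allele fraction of 0.3 in all 3.

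The 461 members fell into 381 groups by the transcripts they share. Of these, 52 held 2 or more members, and 23 held 2 or more at depth 20. Among members at depth 20 or more, the most were found in ENSMUST00000117102 on chromosome 5, with 5 entries at 2 places. At 129109247 the Y positive and Y negative libraries listed a GGG deletion as homozygous (21 of 21 and 24 of 26 reads). The parental library listed GGGG with 13 of 36 reads and GGG with 23 of 36. At 129109520, 681 bases after the stop codon, the parental library listed a TT deletion as heterozygous with 40 of 76 reads. Y positive and Y negative listed both TT (40 of 97 and 38 of 103) and T (36 of 97 and 48 of 103). Where all alternative reads of a site were summed, this was the 1 member called between Y negative and parental (40 of 76 against 86 of 103 reads, Fisher exact test, adjusted p = 0.00922), while the reads with TT alone were not tested.

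In ENSMUST00000057019 on chromosome 2, beside the TT insertion above, 2 deep members were homozygous in every library. A T deletion at 84978696 had 135 of 141, 145 of 149 and 143 of 150 alternative reads, and an A insertion at 84978931 had 128 of 128, 107 of 108 and 117 of 117. In ENSMUST00000036807 on chromosome 8 the deep members were all heterozygous. Alternative reads were 44 of 111, 37 of 95 and 24 of 79 for a G deletion at 27273317. They were 30 of 65, 23 of 56 and 17 of 46 for an AC deletion at 27273348. An A deletion at 27273367 had 20 of 47, 15 of 35 and 10 of 29. Y negative was lowest at all 3 places, which lie within 51 bases and can share reads. No difference at them was called.

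The same transcript held a pair of long insertions at low depth. The Y negative library listed the 13-base insertion at 27273410 shown above (4 of 13 reads), and the parental library listed a 35-base insertion at 27273412 (5 of 18 reads). Set against each other with the 2-base offset of their starts, they shared all 11 overlapping bases, AAAAGAAAGTC. Matching by start and bases counted them as 2 private indels. ENSMUST00000038863 on chromosome 9 held 6 insertions, the most of any group, in 2 clusters that each span 5 bases or fewer. All had 3 to 7 reads, 1 was listed in parental and the other 5 in Y negative, and none was in the Y positive list. The parental one, 22 bases at 123371304, holds all 12 bases of the Y negative insertion at 123371306 in unbroken order. They do not line up at the 2-base offset of their starts. Matching by start and bases counted these 2 as different indels, and whether they are 1 event was not tested.

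Of the 212 members at depth 20 or more, 48 were homozygous in every library that listed them, and their number differed between chromosomes. No test of clustering was run. The highest counts were 9 of 18 on chromosome 3, 7 of 14 on chromosome 2, 7 of 18 on chromosome 8 and 5 of 14 on chromosome 4. Chromosome 13, with 3 of 8, had a higher share than chromosome 4. The like counts of the other autosomal indels were not set beside these. Between 85 and 95 Mb of chromosome 3 there were 21 members, and 7 of the 10 at that depth were homozygous in every listing. The 7 include an A deletion at 94305202, listed in parental alone (24 of 25 reads). Y positive and Y negative listed an A deletion 1 base later, with 20 of 35 and 26 of 40 reads, beside an AA deletion. Such shifted starts also enter the 48, as with the chromosome 5 deletion at 68557575 above. Between 80 and 95 Mb of chromosome 2 there were 11, with 7 of 9 homozygous, and between 40 and 55 Mb of chromosome 11 there were 15, with 2 of 3. Examples from chromosome 3 were a CC deletion at 90409876 (103 of 103, 125 of 125 and 105 of 105 reads) and a CTT insertion at 92797143 (71 of 71, 73 of 73 and 66 of 66). Chromosome 1 had 16 members at that depth and 0 homozygous in every listing, and all 16 had a heterozygous call. Chromosomes 12, 14, 15, 16, 17 and 19 also had 0 homozygous in every listing, with 3 to 11 members each at that depth. These stretches were already known from all indels of the lists, so the members are not independent evidence of them.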

How the data were processed

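Genomic DNA of 3 MB49 lines was sequenced after exome capture, 1 library per line, per the labels. The submitters' processing notes name BWA and Picard without versions. The variant caller is not given in the sources used here. In the deposited lists the depth and the reads of each allele are whole read counts by the authors, and the deposited quality score ranked entries in 1 alternative. All entries carried the filter value PASS and 0 were substitutions. The members, lists and rules were chosen with earlier results of these data known.

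Members were annotated in a 3′ UTR on chromosomes 1 to 19. Allele fraction was an entry's alternative reads over its depth. A Fisher exact test (SciPy 1.17.1, two-sided, Benjamini-Hochberg adjustment by statsmodels 0.14.6, threshold 0.05) was run per site at depth 20 or more in both libraries, after a test on simulated data. With 1 library per group, p-values cover reads only.

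Indels were named if their allele fraction differed, if among the 8 longest, the 6 deepest homozygous, the 6 deepest heterozygous or the 4 deepest private per library, or if in 1 of the 4 transcripts with most members at depth 20 or more. All others named were chosen after their values were seen. Of 592 transcript identifiers, 0 matched the gene table, so no symbols are given. Alternatives were other depths, matches, filters and thresholds. Sequences are the files' own, and those over 30 bases are not printed. Chromosome X was used in 1 alternative alone.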

Additional observations from a re-analysis of the deposited data

How the results depend on the processing

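Of 116 values of 16 results recomputed under 12 alternatives, 97 stayed within the interval of the reported value or, for counts, within 1.5 times of it. Some alternatives could move little. Entries annotated in a 3′ UTR beside another class numbered 2 and changed no value at depth 20 or more, and chromosome X added 19 members. At a minimum depth of 10 the share in all 3 lists was 45.3%, private indels numbered 38 (Y positive) and 33 (Y negative), and 2 members differed between Y negative and Y positive. At 30 Y negative had 12 private indels. Without single-base A or T indels the share in all 3 lists at all depths was 28.1%, homozygous shares at depth 20 or more were 37.3% parental, 42.6% Y positive and 47.4% Y negative, private indels were 12, 8 and 7, and 0 members differed between Y negative and Y positive by the Fisher exact test. Keeping entries at or above the 25th percentile of quality score gave 39.6% in all 3 lists at all depths. Keeping sites with 2 alternative alleles gave 1 member that differed between Y negative and parental. A threshold of 0.01, and Bonferroni adjustment, each gave 0 in both pairs with Y positive, where 6 and 7 members had unadjusted exact p-values under 0.05. The adjusted p of the chromosome 3 deletion (Fisher exact test) ranged from 0.0241 to 0.520 over its alternatives against Y negative and from 0.0175 to 0.404 against parental. Why the adjusted p against Y negative rose without those A or T indels was not tested. No paired analysis was possible because each group held 1 library. Depth limits the rest: at fewer than 5 reads a heterozygous site can show 1 allele alone.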
